A study of Mus musculus with 2 samples.

Results

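The genes of the DNA replication machinery were described in mouse neonatal ventricular cardiomyocytes in primary culture (mNVCM), on 2 Affymetrix arrays. One array held RNA of cells incubated with hAFS-CMHypo before Dox (hAFS-CMHypo + Dox), and the other held RNA of cells given Dox alone (Dox). Dox is doxorubicin, an anthracycline that leaves DNA broken by holding topoisomerase II in place. hAFS-CMHypo is the medium conditioned under hypoxia by human amniotic fluid-derived stem cells, and contains what these cells secrete. Both cultures came from C57BL6/J mice, 2 days after birth, and both were kept for 1 h in medium with 0.5% serum and then received Dox at 1 μM, so that no array of untreated cells or of hAFS-CMHypo alone was analysed here. The labels give 6 h of Dox for hAFS-CMHypo + Dox and 21 h for Dox, whereas the written methods give a single duration for both conditions, the shorter of these. The effect of the conditioned medium and that of the labelled hours cannot be told apart. Cells were obtained by enzymatic digestion of hearts, so a culture also holds cells other than cardiomyocytes, and the conditioned medium came from pooled donors.

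The genes are 45 that build or feed the replication fork, fixed by name. Every probe set that names exactly 1 of them was taken, which gave 99 probe sets out of 45101 on the array, and all 45 genes had at least 1. Each of them, like all 18193 genes, took its value from its brightest probe set, by the mean of both arrays. The values are log2 expression after RMA, and a log2 ratio is the value for hAFS-CMHypo + Dox minus the value for Dox. With 1 array per condition there was no replicate check, no test and no p-value, and precision is limited by there being only 2 arrays. Probe sets of one gene differed among themselves in log2 ratio with an SD of 0.20 (5166 genes), which describes spread within these arrays and not between cultures. No gene is ranked against another by level, because binding strength varies from one probe set to the next.

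DNA replication starts at origins marked by the origin recognition complex, ORC. CDC6 and CDT1 load the ring-shaped MCM2-7 helicase on them, a step called licensing that geminin blocks once DNA synthesis has begun. The kinase CDC7, with CDC45, the GINS complex and MCM10, then turns the loaded ring into a moving helicase. Polymerase α and primase lay down primers, RFC loads the PCNA clamp, and polymerases δ and ε copy the strands while RPA covers single-stranded DNA. FEN1 and LIG1 trim and join the pieces of the lagging strand. Ribonucleotide reductase, thymidylate synthase and thymidine kinase supply the nucleotides. Most of these genes are switched on by E2F transcription factors as a cell leaves G1, and cardiomyocytes of the mouse stop dividing soon after birth.

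The replication genes were mostly lower on the hAFS-CMHypo + Dox array than on the Dox array, by small amounts. Of the 45 genes, 35 (77.8%) had a log2 ratio below 0, beside 48.7% of all genes. Their median log2 ratio was -0.15, beside 0.01 for all genes. Lower values can come from fewer cells of one type or from less RNA per cell, and these cannot be told apart in RNA of whole cultures. A log2 ratio of 0.32 in either direction was used as the threshold for single genes. By it, 6 genes (13.3%) were lower, namely *Pola1*, *Tk1*, *Orc4*, *Pola2*, *Rpa1* and *Gins1*, beside 7.27% of all genes. *Cdc6* alone (2.22%) was higher, beside 9.14% of all genes. The other 38 genes lay within it, with *Mcm5* (-0.29) and *Mcm4* (0.30) nearest to the threshold. At 2-fold, the threshold of the study's methods, no replication gene was lower or higher, beside 0.214% and 0.506% of all genes. Differences of 25 of the 45 genes were smaller than the SD between probe sets, beside 11869 of all 18193 genes.

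**Figure D1:**
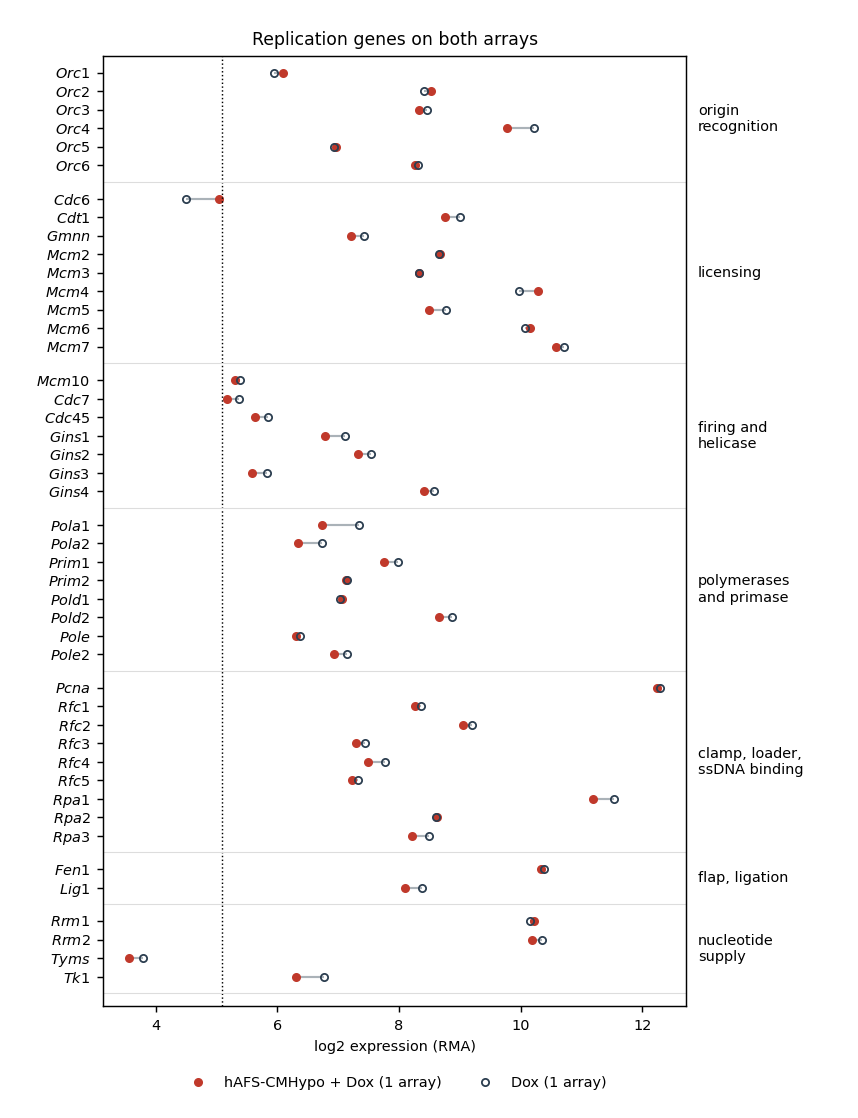
Log2 expression (RMA, x axis) of the 45 replication genes (rows, by role) on the hAFS-CMHypo + Dox array (filled red points) and the Dox array (open dark points), each gene shown by its brightest probe set. A dotted line stands at 5.10, the median over both arrays; the red point lies to the left of the dark one for 35 genes, and the widest gap is that of *Pola1*.

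The pattern was weaker over single probe sets. Of the 99 probe sets, 72 (72.7%) had a log2 ratio below 0, 9 (9.09%) were lower by at least the threshold of 0.32 and 4 (4.04%) were higher. Over all probe sets with 1 gene these shares were 8.17% lower and 8.93% higher, so the share of lower probe sets was close to that of the array and the share of higher ones was below it. Probe sets of one gene often disagreed in sign. Of 33 genes with 2 or more probe sets, 19 had ratios on both sides of 0, with probe sets of low signal included. Among genes with 2 or more probe sets at or above the median of all values, all probe sets were below 0 for 11 of 26 replication genes (42.3%), beside 27% of 5166 genes on the array. All were above 0 for 1 of 26 (3.85%), *Orc1*, beside 29.6%. The dimmer probe set of *Orc1* reached the median of all values through the hAFS-CMHypo + Dox array alone. Signs were mixed for 14 of 26 replication genes, beside 2244 of 5166 genes on the array.

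**Figure D2:**
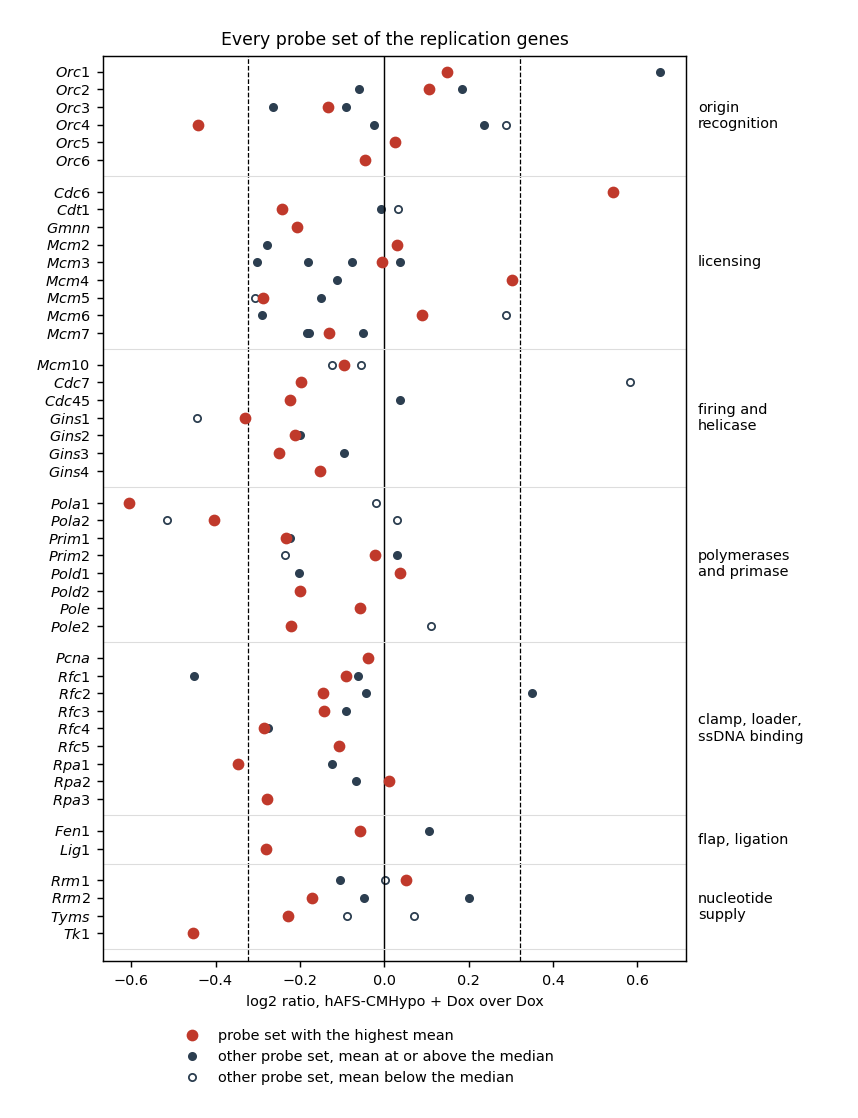
Log2 ratio (hAFS-CMHypo + Dox over Dox, x axis) of each of the 99 probe sets of the replication genes (rows, by role). Red points are the probe sets with the highest mean, dark filled points other probe sets with a mean at or above the median of all values, and open points other probe sets below it; the dashed lines mark the threshold of 0.32, beyond which 9 probe sets lie on the left and 4 on the right.

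Promoter sequences were looked at because these genes share a known regulator and mostly lay on one side of 0. RefSeq promoter windows (GRCm38.p6), from 250 bases before to 50 bases after the start of a gene, were matched by symbol for 37 of the 45 genes, with 46 windows in all. They were searched on both strands for the E2F letters TTTCCCGC, TTTCGCGC, TTTGCCGC and TTTGGCGC. Of the 46 windows, 14 (30.4%) held at least 1 match, each of a different gene, beside 2.26% of 32851 windows of all genes. The CCAAT letters, those of the factor NF-Y, stood on either strand of 54.3% of the windows of replication genes and 37.4% of all windows. Windows of replication genes had a median GC content of 60.7%, beside 52.7% for all, and the part of GC content in these shares was not tested. The 20 E2F matches began at positions from -165 to 39 relative to the start, 12 of them before it.

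The 200 bases before the start are given for 6 genes, chosen after the values were seen: the only gene that was higher (*Cdc6*), its partner *Orc1*, the gene with the largest difference (*Pola1*), the genes whose matches overlap each other (*Mcm6* and *Mcm5*), and a lower gene with no match (*Rpa1*). E2F letters, on either strand, are in capitals.
Cdc6, chr11:98907951-98908150, plus strand: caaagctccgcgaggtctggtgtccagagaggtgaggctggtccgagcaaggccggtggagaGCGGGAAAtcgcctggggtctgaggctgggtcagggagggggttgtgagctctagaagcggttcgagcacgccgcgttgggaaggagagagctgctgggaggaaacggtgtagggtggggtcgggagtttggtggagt
Orc1, chr4:108579254-108579453, plus strand: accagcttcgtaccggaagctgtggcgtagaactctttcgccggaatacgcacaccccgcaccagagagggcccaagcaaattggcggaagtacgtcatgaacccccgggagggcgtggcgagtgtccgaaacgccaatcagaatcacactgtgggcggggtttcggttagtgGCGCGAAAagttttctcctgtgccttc
Pola1, chrX:93632156-93632355, minus strand: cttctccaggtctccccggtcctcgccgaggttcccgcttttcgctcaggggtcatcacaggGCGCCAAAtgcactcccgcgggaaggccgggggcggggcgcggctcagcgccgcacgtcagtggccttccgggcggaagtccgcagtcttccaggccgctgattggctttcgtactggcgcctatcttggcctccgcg
Mcm6, chr1:128359706-128359905, minus strand: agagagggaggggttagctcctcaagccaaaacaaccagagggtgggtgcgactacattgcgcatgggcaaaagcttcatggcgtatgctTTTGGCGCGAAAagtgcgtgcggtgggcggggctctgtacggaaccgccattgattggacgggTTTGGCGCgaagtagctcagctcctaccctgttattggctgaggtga
Mcm5, chr8:75109309-75109508, plus strand: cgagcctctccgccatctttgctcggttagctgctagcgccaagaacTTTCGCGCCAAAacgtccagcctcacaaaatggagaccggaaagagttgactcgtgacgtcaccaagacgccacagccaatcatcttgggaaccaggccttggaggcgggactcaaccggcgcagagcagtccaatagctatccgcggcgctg
Rpa1, chr11:75348384-75348583, minus strand: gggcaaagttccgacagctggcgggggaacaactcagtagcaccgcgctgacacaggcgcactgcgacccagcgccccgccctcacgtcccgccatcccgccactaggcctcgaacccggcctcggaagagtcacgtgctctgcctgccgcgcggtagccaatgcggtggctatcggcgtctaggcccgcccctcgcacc

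Genes with the E2F letters were found at both ends of the log2 ratios. *Pola1* and *Cdc6* each have 1 match in the bases shown, and they had the lowest and the highest ratio of all replication genes. In *Mcm5* and *Mcm6*, 2 matches on opposite strands overlap, and *Mcm6* has a further match nearer to the start. The 14 genes with the letters had a median log2 ratio of -0.14, and 10 were below 0. The 23 genes with windows but without the letters had a median of -0.17, and 18 were below 0. A match is a run of letters and not a shown binding site, and the ratios were set beside it without a test.

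**Figure D3:**
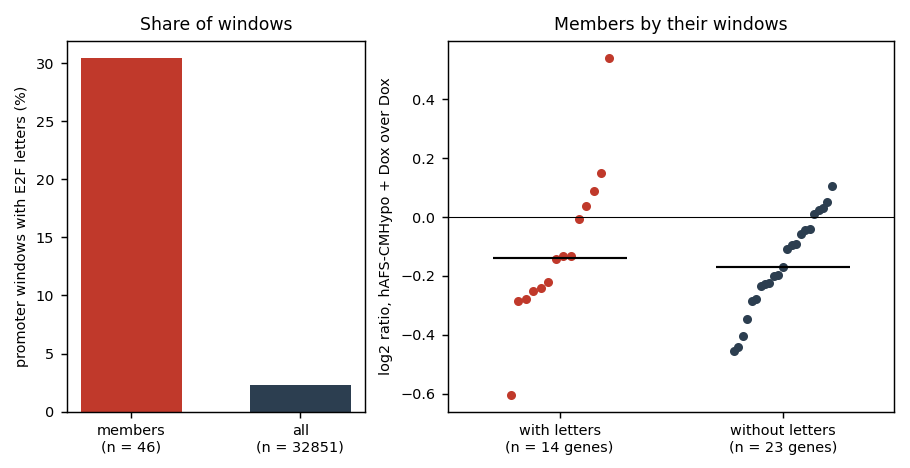
Left, percentage of RefSeq promoter windows that hold at least 1 match to the E2F letters, for replication genes (46 windows, 30.4%) and for all genes (32851 windows, 2.26%). Right, log2 ratio (hAFS-CMHypo + Dox over Dox) of replication genes with (n = 14) and without (n = 23) the letters, 1 point per gene with the median as a bar; the medians, -0.14 and -0.17, lie close together.

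Origin recognition genes lay on both sides of 0, with 3 of 6 below 0 and a median log2 ratio of -0.01. *Orc4*, a subunit of ORC, had 9.78 for hAFS-CMHypo + Dox and 10.22 for Dox, which gave a ratio of -0.44. Its other probe sets had -0.02, 0.24 and 0.29, so the difference rests on 1 probe set of 4. The 0.29 comes from a probe set under the 25th percentile (3.80) of the values on both arrays. *Orc1*, the subunit that comes and goes with the cell cycle, had 6.09 for hAFS-CMHypo + Dox and 5.94 for Dox (0.15), and 5.45 against 4.80 (0.65) at its other probe set. Both probe sets of *Orc1* were therefore higher with hAFS-CMHypo, the second by more than any other probe set of the replication genes. The Dox value of that second probe set lies below the median of all values (5.10). The ratio of *Orc2* was 0.11, of *Orc3* -0.13, of *Orc5* 0.02 and of *Orc6* -0.05.

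Licensing genes were also spread around 0, with 5 of 9 below it and a median of -0.01. *Cdc6*, the ATPase that brings MCM2-7 to ORC, had 5.04 for hAFS-CMHypo + Dox and 4.50 for Dox, a difference of 0.54 or 1.46-fold. Both values lie below the median of all values (5.10), and *Cdc6* has only 1 probe set. *Cdt1*, which works with CDC6, had 8.76 for hAFS-CMHypo + Dox and 9.0 for Dox (-0.24), with -0.01 and 0.03 at its other probe sets. The 0.03 comes from a probe set under the 25th percentile on both arrays. *Gmnn*, which codes for geminin, the inhibitor of CDT1, had 7.22 for hAFS-CMHypo + Dox and 7.43 for Dox (-0.21). At their brightest probe sets *Cdc6* and *Cdt1* lay on opposite sides of 0, but *Cdc6* did so at low signal and the other probe sets of *Cdt1* were close to 0.

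The 6 genes of the MCM2-7 ring, whose products work in equal numbers, did not share one direction. *Mcm4* had 10.28 for hAFS-CMHypo + Dox and 9.98 for Dox (0.30), but -0.11 at its other probe set. *Mcm5* had 8.49 for hAFS-CMHypo + Dox and 8.78 for Dox (-0.29), and its other probe sets, with -0.15 and -0.31, were below 0 as well. *Mcm7* was below 0 at all 4 probe sets, from -0.18 to -0.05. The values of *Mcm2* (0.03 and -0.28), *Mcm3* (-0.01, with 5 probe sets from -0.30 to 0.04) and *Mcm6* (0.09, with 3 probe sets from -0.29 to 0.29) depended on the probe set. The 0.29 of *Mcm6* comes from a probe set under the 25th percentile on both arrays. *Mcm5* and *Mcm7* were the only genes of the ring with all probe sets on one side of 0.

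At their brightest probe sets, all 7 genes of origin firing and the active helicase had ratios below 0, with a median of -0.21, but 1 alone passed the threshold, and *Cdc7* and *Cdc45* each had another probe set above 0. It was *Gins1*, with 6.78 for hAFS-CMHypo + Dox and 7.11 for Dox (-0.33), and -0.44 at its other, dimmer probe set. The 4 GINS genes code for the 4 subunits of one complex that binds the helicase. Their ratios were -0.33 for *Gins1*, -0.21 for *Gins2*, -0.25 for *Gins3* and -0.15 for *Gins4*, and all 7 probe sets of the complex were below 0. The GINS genes were thus a complex with all ratios on one side, of about the size of the SD between probe sets. *Cdc45*, the other partner of the helicase, had 5.63 for hAFS-CMHypo + Dox and 5.85 for Dox (-0.22), with 0.04 at its other probe set. *Mcm10* had 5.30 for hAFS-CMHypo + Dox and 5.39 for Dox (-0.09). *Cdc7* was not settled, with 5.16 against 5.36 (-0.20) at one probe set and 5.03 against 4.45 (0.58) at the other, both near the median of all values.

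Polymerase and primase genes had a median of -0.21, with 7 of 8 below 0 and 2 past the threshold. These were the large and the second subunit of polymerase α, which starts every new strand. *Pola1*, the catalytic subunit, had 6.74 for hAFS-CMHypo + Dox and 7.34 for Dox, a difference of -0.60 or 1.52-fold. Its other probe set had 3.33 for hAFS-CMHypo + Dox and 3.35 for Dox (-0.02), under the 25th percentile (3.80) of the values on both arrays. *Pola2* had 6.34 for hAFS-CMHypo + Dox and 6.74 for Dox (-0.40), with -0.51 and 0.03 at dimmer probe sets. *Prim1*, the catalytic subunit of primase, which is bound to polymerase α, was below 0 at both of its probe sets (-0.23 and -0.22), while its partner *Prim2* had -0.02. Among the polymerases that extend the strands, *Pold2* had -0.20, *Pole2* -0.22 and *Pole* -0.06, and *Pold1* had 7.06 for hAFS-CMHypo + Dox and 7.03 for Dox (0.04), with -0.20 at its other probe set. The ratios of *Pold2*, *Pole2* and the second probe set of *Pold1* were thus close to those of *Prim1*, and only the genes of polymerase α passed the threshold. The probe set of *Pold1* above 0 is of a less specific type, which can bind RNA of other genes. The same holds for the brightest probe sets of *Mcm2*, *Mcm3*, *Mcm5*, *Mcm7*, *Gins2*, *Fen1* and *Rrm2*, most of them below 0. With such probe sets left out, the median of the 45 genes was -0.18. By the threshold, 6 genes (13.3%) were then lower, beside 7.3% of all genes.

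Genes of the clamp, its loader and single-strand binding had a median of -0.14, with 8 of 9 below 0. *Pcna*, the sliding clamp, had 12.25 for hAFS-CMHypo + Dox and 12.29 for Dox (-0.04), a difference well within the SD between probe sets. The 5 genes of the loader RFC lay between -0.29 (*Rfc4*) and -0.09 (*Rfc1*). *Rfc4* had 7.49 for hAFS-CMHypo + Dox and 7.77 for Dox, and a like ratio of -0.28 at its other probe set, whereas *Rfc2* had -0.15, with -0.04 and 0.35 at its other probe sets. *Rpa1*, the large subunit of the protein that coats single-stranded DNA, had 11.19 for hAFS-CMHypo + Dox and 11.54 for Dox (-0.35), and -0.13 at its other probe set. *Rpa3*, the small subunit, had -0.28, and *Rpa2*, the middle subunit, had 8.62 for hAFS-CMHypo + Dox and 8.61 for Dox (0.01). At the brightest probe sets, subunits of a single complex thus differed in ratio, as in the MCM2-7 ring. The other probe set of *Rpa2* had -0.07, near the -0.13 of *Rpa1*, and a difference between subunits was not tested.

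*Lig1*, the ligase of the lagging strand, had 8.09 for hAFS-CMHypo + Dox and 8.37 for Dox (-0.28), at its only probe set. *Fen1*, the nuclease that removes primer flaps before ligation, had 10.33 for hAFS-CMHypo + Dox and 10.39 for Dox (-0.06), and 0.11 at its other probe set. Of the pair, only *Lig1* had a difference above that SD.

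Genes of nucleotide supply had a median of -0.20, with 3 of 4 below 0, *Tyms* at low signal among them. With the mean of all probe sets as a gene's value, this median was -0.07. *Tk1*, the thymidine kinase made in dividing cells, had 6.31 for hAFS-CMHypo + Dox and 6.76 for Dox (-0.45) at its only probe set, the lowest ratio after that of *Pola1*. The ribonucleotide reductase genes, by contrast, differed little, with 10.21 against 10.16 (0.05) for *Rrm1*, the large subunit. For *Rrm2*, the small subunit of dividing cells, the values were 10.18 for hAFS-CMHypo + Dox and 10.35 for Dox (-0.17), with -0.05 and 0.20 at its other probe sets. *Tyms*, thymidylate synthase, had 3.57 for hAFS-CMHypo + Dox and 3.80 for Dox at the brightest of its 4 probe sets, all below the 25th percentile on both arrays, so its ratio (-0.23) is not shown to be a difference in RNA.

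Further genes of replication, listed by function, did not share the lower values. Of 27 other replication factors, 8 were below 0 and 19 above it (median 0.14), beside 48.7% of all genes below 0. By the threshold, 2 were lower and 3 higher, beside 7.27% and 9.14% of all genes, so these counts were near the shares of all genes. *Pold4*, an accessory subunit of polymerase δ, had 8.27 for hAFS-CMHypo + Dox and 7.69 for Dox (0.58). *Dna2*, a nuclease and helicase of the lagging strand, had 5.40 for hAFS-CMHypo + Dox and 4.85 for Dox (0.55). Only its hAFS-CMHypo + Dox value reached the median of all values (5.10), and its other probe sets went down to 0.07. *Wdhd1*, which ties polymerase α to the helicase, had 0.42, and *Rnaseh2b*, a subunit of ribonuclease H2, had -0.37. *Dbf4*, the activating partner of CDC7, had 9.18 for hAFS-CMHypo + Dox and 8.87 for Dox (0.31), named here after its value was seen. The core genes and these further factors thus had medians on opposite sides of 0, a contrast that could not be tested with 2 arrays. Members and lists were chosen with earlier results of these data known, so the contrast is a description only.

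Proliferation and mitosis genes had a lower median than the replication genes, a difference that was not tested. Of 11 measured, 10 were below 0, beside 48.7% of all genes, with a median of -0.27. By the threshold, 4 were lower, beside 7.27% of all genes. At another probe set *Bub1* (-0.26) had 0.24 and *Aurka* (0.01) had -0.14, so their signs depended on the probe set. *Aurkb*, a mitotic kinase, had 5.59 for hAFS-CMHypo + Dox and 6.44 for Dox (-0.85). *Kif11*, a spindle motor, had 4.88 for hAFS-CMHypo + Dox and 5.33 for Dox (-0.45). Only the Dox value of *Kif11* reached the median of all values (5.10), and its other probe sets went up to -0.14. *Birc5*, survivin, had -0.43, *Ccna2*, cyclin A2, had -0.33, and *Mki67*, the gene of the Ki-67 antigen, named after its value was seen, had -0.18. Chromatin assembly genes that act behind the fork had a median of -0.09, with 6 of 8 below 0. Among them *Hells* had 0.36 (-0.15 at a probe set of similar signal), *Uhrf1* -0.26, *Asf1a* -0.21 and *Nasp* -0.15.

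The E2F factors and the pocket proteins that hold them back had a median of -0.08, with 8 of 13 below 0. *E2f8*, a repressor of this family, had 5.02 for hAFS-CMHypo + Dox and 5.87 for Dox (-0.85), and -0.20 at its other probe set. Of the 2 values of *E2f8*, only that for Dox reached the median of all values (5.10). *E2f4*, which works as a repressor with pocket proteins in resting cells, had 6.42 for hAFS-CMHypo + Dox and 5.80 for Dox (0.63). *Rbl1*, the pocket protein p107, had -0.40, with 4 probe sets from -0.40 to 0.14. *Tfdp2*, a partner of E2F, had -0.32, with 4 probe sets from -0.71 to -0.05. The activators, named after their values were seen, had -0.03 (*E2f1*), -0.13 (*E2f2*) and 0.01 (*E2f3*), all within the SD between probe sets. The lowest probe set of *E2f1* had -0.22. Of 10 other genes of nucleotide supply (median 0.02), 1 was lower and 2 were higher by the threshold, beside 7.27% and 9.14% of all genes. *Dck*, deoxycytidine kinase, had -0.68 (-0.13 and -0.09 at its other probe sets), and *Cad*, which starts pyrimidine synthesis, had 0.44 (probe sets from 0.16 to 0.55). *Gart*, of purine synthesis, had 0.33 (probe sets from 0.04 to 0.33). *Rrm2b*, the p53-induced subunit of ribonucleotide reductase, had -0.31 (probe sets from -0.44 to -0.28).

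**Figure D4:**
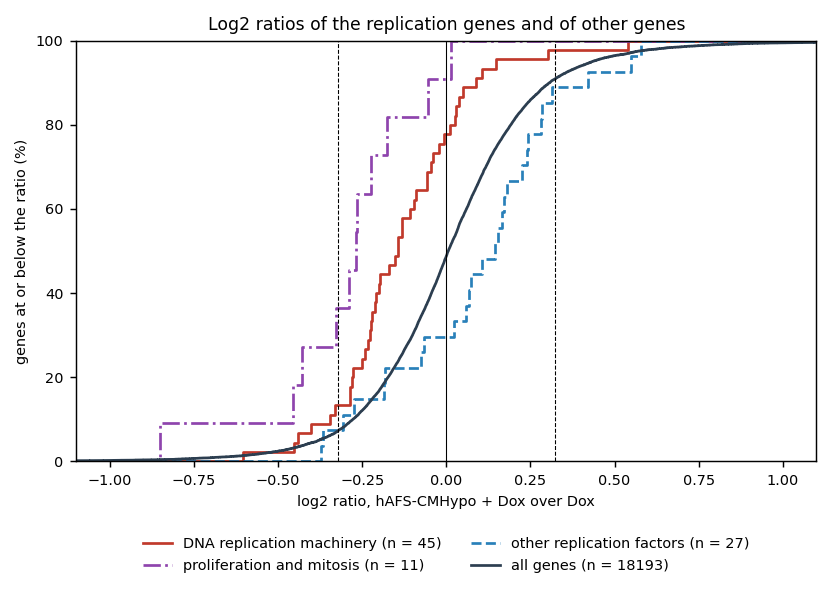
Cumulative percentage of genes (y axis) at or below a log2 ratio of hAFS-CMHypo + Dox over Dox (x axis) for the 45 replication genes, 11 genes of proliferation and mitosis, 27 other replication factors and all 18193 genes. The dashed lines mark the threshold of 0.32; 77.8% of the replication genes and 48.7% of all genes have a ratio below 0.

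The arrays carried the markers of cardiomyocytes at high levels, together with markers of other cells. All 10 cardiomyocyte markers had a ratio below 0 (median -0.11), with *Pln* lowest at -0.57. The log2 of the summed unlogged levels of these markers was 17.53 for hAFS-CMHypo + Dox and 17.63 for Dox. Fibroblast markers, of cells that can divide in such cultures, had 6 of 9 below 0 (median -0.13). The log2 of their summed unlogged levels was 13.98 for hAFS-CMHypo + Dox and 14.02 for Dox. Single fibroblast markers ranged from -1.03 (*Tcf21*) to 0.79 (*Pdgfra*). Another probe set of *Tcf21* had 0.18 and another of *Pdgfra* had -0.05, so both extremes depended on the probe set. The medians of the other marker lists were 0.04 for endothelium, 0.33 for macrophages, 0.13 for smooth muscle, 0.23 for epicardium and 0.11 for erythroid cells. That of 9 housekeeping genes was near 0. For macrophages and epicardium the summed unlogged levels were slightly lower for hAFS-CMHypo + Dox than for Dox, against the sign of their medians. Of 7 macrophage markers 5 were above 0 and 2 below it, and of 3 epicardial markers 2 were above and 1 below. Their direction thus depended on the summary used. For endothelium, smooth muscle and erythroid cells the summed levels were higher for hAFS-CMHypo + Dox. None of the defining markers of the first 6 cell types was below the 25th percentile on both arrays, and 1 of 2 erythroid markers was. The part of the mix of cells in the values of the replication genes was not tested.

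With 1 array per condition, the counts describe these 2 arrays, and differences near the threshold depend on the probe set chosen. With the mean of all probe sets as a gene's value, 2 of the 45 genes (4.44%), *Tk1* and *Gins1*, were lower by the threshold, beside 5.5% of all genes, so the share of lower genes was then not above that of the array. *Orc4* came to 0.015, *Pola1* to -0.31, *Pola2* to -0.30 and *Rpa1* to -0.24, while 35 of 45 were below 0.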

How the data were processed

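RNA of mNVCM was hybridised to 1 Affymetrix mouse array per condition. The authors used RMA with quantile normalization, and their deposited log2 values, 1 per probe set, were used unchanged. Software version and probe set definition: not given in the sources used here. The log2 scale was read from the range of the values (2.37 to 15.05). Groups came from the labels. Symbols came from the platform annotation, updated through the Entrez ID, and 34958 probe sets named 1 gene. Genes were listed by role, and the members and lists were chosen with earlier results of these data known. Members past a log2 ratio of 0.32 and the extremes of each role were named. From each other list, up to 4 genes with the largest differences were named. These were taken among genes with at least 1 array at or above the median of all values. No test was possible with 1 array per condition. Alternatives were other thresholds, other probe set choices, filters on low signal, centring and lowess correction (span 0.3). Counting was tested on simulated data. Figures were drawn with matplotlib 3.10.9, the lowess fit used statsmodels 0.14.6, and tables were handled with pandas 2.3.3 and numpy 2.4.6 under Python 3.11.15.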

Additional observations from a re-analysis of the deposited data

Results flagged for a closer look

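A probe set that names *Tyms* and its pseudogene *Tyms-ps* together was left out of the genes, and was looked at because it carried clear signal where the probe sets of *Tyms* alone did not. Its log2 value was 8.67 for hAFS-CMHypo + Dox and 8.50 for Dox, a difference of 0.17, and it cannot be assigned to either.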

How the results depend on the processing

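The number of replication genes lower by a log2 ratio of 0.32 was 6, and 1 was higher. With the mean of all probe sets as the value of a gene, 2 were lower (4.44%, beside 5.5% of all genes) and 2 higher (4.44%, beside 6.88%). *Orc4* turned to 0.015, and *Pola1* (-0.31), *Pola2* (-0.30) and *Rpa1* (-0.24) no longer passed the threshold. With the probe set of largest change, 7 were lower (15.6%, beside 12.5% of all genes) and 4 higher (8.89%, beside 13.7%). Keeping genes at or above the median signal left 0 higher, because *Cdc6* lies below it. A log2 threshold of 0.20 gave 18 lower (40%, beside 16.6% of all genes) and 2 higher (4.44%, beside 18.8%), and one of 0.58 gave 1 lower (2.22%, beside 1.52%) and 0 higher (beside 2.32%). In the other 21 comparisons of counts and medians with an alternative, the count stayed within 1.5 times and the median within the SD between probe sets. The median of the replication genes lay between -0.21 and -0.11 over the alternatives. No paired analysis was possible because each condition has 1 array. Signal limits *Tyms* and *Cdc6*.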
